A study of Mus musculus with 75 samples.

Results

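The 10 genes described here encode proteins that the lining of the airways secretes, or that help to make them. They are the secretoglobins Scgb1a1, Scgb3a1 and Scgb3a2, the gel-forming mucins Muc5b and Muc5ac, the BPI fold proteins Bpifa1 and Bpifb1, the mucin-folding protein Agr2, and the antimicrobial proteins Reg3g and Ltf. They were taken by gene symbol from the 55536 genes of the count table, and all 10 were among the 16221 genes with enough counts to be tested. The data are RNA sequencing counts of 75 male C57BL/6JRj mice, each with 1 library made from the inferior right lobe of its lung. The design asks how the lung transcriptome moved over time after lung injury by bleomycin (BLEO), a cytostatic drug given once into the trachea as bleomycin sulphate at 12 to 14 weeks of age. The groups were 10 control mice (CTRL), and BLEO-IPF mice killed on day 7 (10 mice), days 14, 21, 28 and 35 (12 mice each) and day 42 (7 mice). The sample labels name saline as the treatment of CTRL mice, whereas the treatment text calls the controls untreated. BLEO-IPF mice entered a group only if they had lost between 5% and 17% of their weight on day 6, and all lungs had been rinsed with saline for lavage before tissue was taken. Each library is a mixture of all cells of the lobe, and for every value below fewer cells of a type and less RNA per cell cannot be told apart.

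Club cells, which line the small airways of the mouse, release secretoglobins, small proteins that make up much of the airway surface fluid. Goblet and other mucous cells, which in the mouse sit mainly in the larger airways, make gel-forming mucins, long glycoproteins that trap particles and are moved out by cilia. The same secretions carry antimicrobial proteins, and secretory cells are known to shift their products when the airway is injured or inflamed.

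Total counts per library ranged from 9240291 to 14665247 with a median of 10677163, and levels are given as CPM, the counts scaled by library size with TMM factors. The median correlation of a mouse with the other mice of its group was between 0.9468 and 0.9887, and no pair of the 375 pairs of mice within groups was close enough to be 1 library deposited again. Lung identity was plain in CTRL mice, where 8 alveolar type 2 cell markers summed to between 22700 and 27600 CPM, 14 club cell genes to between 9350 and 11500 CPM and 12 ciliated cell markers to between 587 and 807 CPM. Of 10 markers of airway cartilage only 3 had enough counts to be tested, and the list summed to 1.62 to 4.04 CPM in CTRL mice, with a highest value of 14.1 CPM in any mouse.

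The 10 genes did not move as a block. Scgb1a1 and Scgb3a2 fell after BLEO and were lowest on days 14 and 21. Agr2, Ltf and, less evenly between mice, Bpifa1 and Reg3g rose, while Scgb3a1, Muc5b, Muc5ac and Bpifb1 passed the test on no day in the fit of all 75 mice. On day 7, 2 of the 10 genes were higher than in CTRL at an adjusted p under 0.05 (edgeR quasi-likelihood test, Benjamini-Hochberg over all genes tested) and 1 was lower, where 24.8% of all genes tested were called higher and 21% lower, 45.8% in all. On day 14, 4 were higher and 2 lower (background 32.4% and 29.9%, 62.4% in all). For day 21 the numbers were 2 and 2 (28.3% and 25.8%, 54.2% in all), and for day 28 4 and 2 (24.1% and 19.2%, 43.3% in all). Day 35 had 3 higher and 1 lower (16.9% and 13.1%, 29.9% in all) and day 42 had 2 and 0 (13.7% and 11%, 24.7% in all). Without day 35 replicate 6 the number called on day 35 was 2. In a fit of only the groups compared 5 were called on day 7 and 4 on day 42. Those fits did not test Agr2, and called 53.7% and 39.8% of all genes they tested. In the fit of all 75 mice the share of the 10 genes called was 30%, 60%, 40%, 60%, 40% and 20% in order of time. With 10 genes a single call weighs much, and no difference from the share of all genes was tested. Agr2 is counted among the genes called higher on days 7 to 35. It passed the filter on low counts only through BLEO-IPF mice, so its calls are no support for a rise of the 10 genes. On days 7 and 21 Ltf was the only other gene called higher. The median log2 fold change (log2FC) of the 10 genes took values of 0.64, 0.91, 0.22, 0.56, 1.11 and -0.49 in the same order. The median over all genes tested stayed within 0.018 of 0 on each day. Scaling of the counts holds such a median near 0, and a shift of the 10 genes as a set was not tested. All 6 comparisons share the same CTRL mice.

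**Figure D1:**
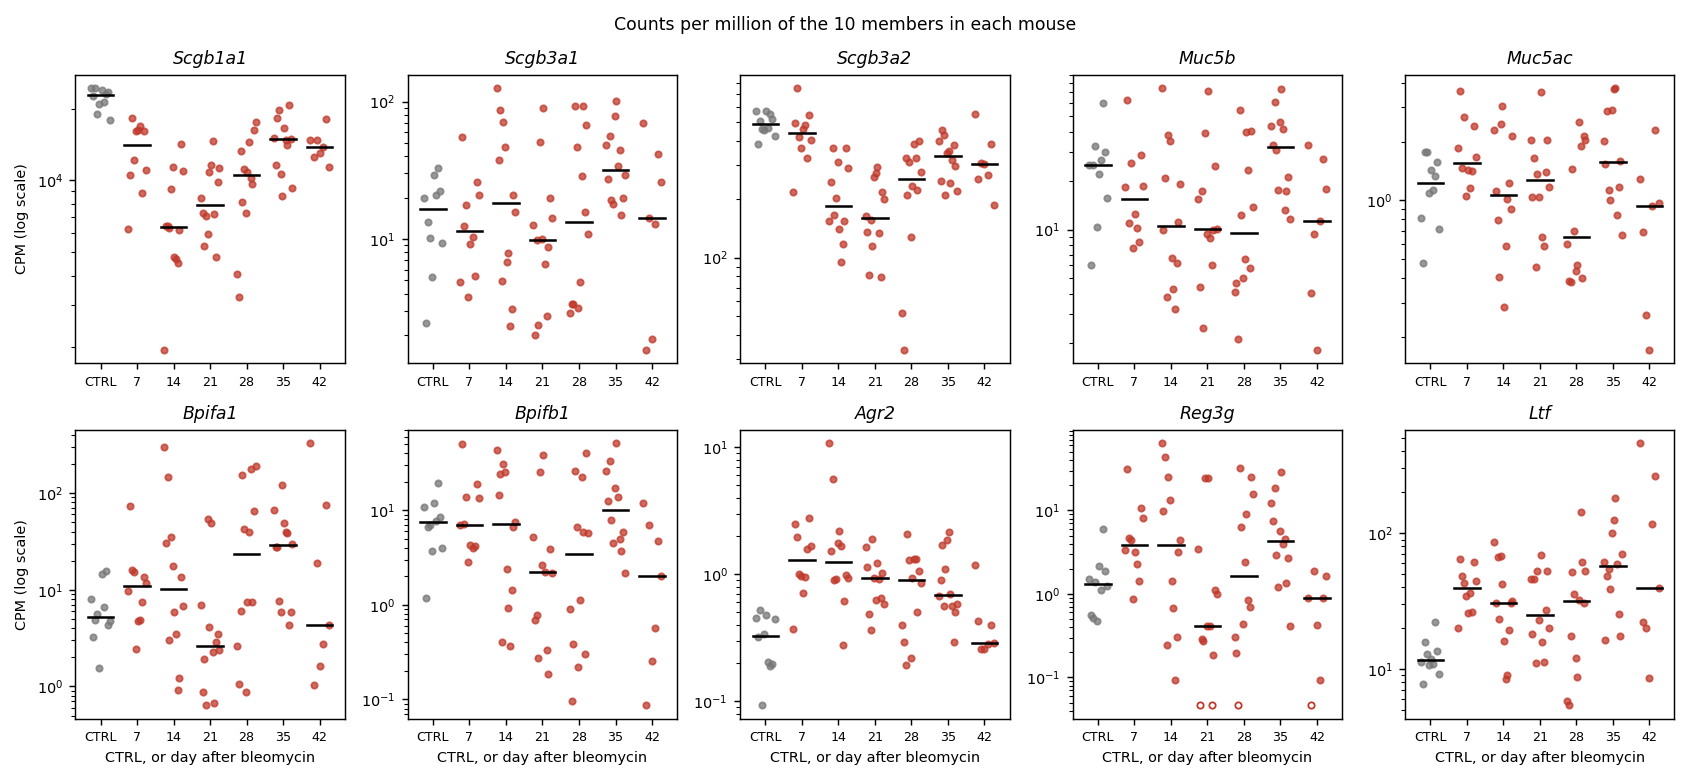
CPM of each of the 10 genes on a log axis, with 1 point per mouse, grey for CTRL and red for the BLEO-IPF days, and a black line at the group median. Open points at the foot of a panel are mice with a count of 0. Scgb1a1 and Scgb3a2 sit in a narrow band in CTRL and drop on days 14 and 21, whereas Bpifa1 spreads from 0.92 to 296.4 CPM on day 14 alone.

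Scgb1a1 encodes the club cell secretory protein, the leading product of club cells. It was the most abundant of the 10 genes and the gene with the most counts in 10 of 10 CTRL libraries, where it took between 1.79% and 2.43% of all counts. Per kilobase of exon its mean in CTRL was 46370 CPM, against 558.3 for Scgb3a2, 27.8 for Scgb3a1, 4.49 for Bpifa1, 3.67 for Ltf, 2.24 for Bpifb1, 1.70 for Muc5b, 0.80 for Reg3g, 0.25 for Agr2 and 0.11 for Muc5ac. On day 14 its share of all counts had a median of 0.622%, it led the library in 4 of 12 mice, and in 1 mouse it stood at place 29. The gene (ENSMUSG00000024653) lies on the minus strand at chr19:9083636-9087958 of GRCm38.

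In CTRL mice Scgb1a1 ran from 17910 to 24460 CPM with a median of 22820 (mean 22070 ± 2292, SD, n = 10). It ran from 6253 to 18340 CPM on day 7 (median 14110), from 1947 to 14180 on day 14 (median 6364) and from 4795 to 14570 on day 21 (median 7872). It then ran from 3238 to 17600 CPM on day 28 (median 10550), from 8601 to 20750 on day 35 (median 14850) and from 11370 to 18130 on day 42 (median 13870). On days 14, 21 and 28 all 12 mice lay below the lowest CTRL mouse, on days 7, 35 and 42 some mice reached into the CTRL range, and no BLEO-IPF mouse on any day reached the CTRL median. Groups fully below CTRL were found for 6.15% of all genes tested on day 14, 4.85% on day 21 and 1.34% on day 28.

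Against CTRL, Scgb1a1 fell on day 7 with a log2FC of -0.73 (SE 0.23, adjusted p = 0.00638). The fall was larger on day 14, at -1.61 (SE 0.22, adjusted p = 3.56e-09), a level 3.04 times lower. It then stood at -1.34 (SE 0.22, adjusted p = 4.14e-07) on day 21 and at -1.07 (SE 0.22, adjusted p = 5.62e-05) on day 28. On day 35 the log2FC was -0.60 (SE 0.22, adjusted p = 0.0273) and on day 42 -0.65 (SE 0.25, adjusted p = 0.0515), so the last value missed the threshold although 6 of 7 mice lay below every CTRL mouse. The call on day 35 was lost without day 35 replicate 6, at -0.55 (adjusted p = 0.0546). The day 42 value was called in a fit of only the groups compared (adjusted p = 3.51e-05), and in 11 refits that left out 1 mouse, namely day 7 replicate 1, day 14 replicate 1, 6 or 11, day 21 replicate 5, 8 or 10, day 28 replicate 1, 2 or 12, or day 42 replicate 6, with a log2FC of -0.65 to -0.73 (adjusted p from 0.0376 to 0.0497).

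Within the course, Scgb1a1 was lower on day 14 than on day 7 (log2FC -0.87, SE 0.22, adjusted p = 0.00339), and 2 of the 10 genes were lower and 0 higher in this comparison, beside 7.55% and 9.48% of all genes tested, 17% in all. It was higher again on day 42 than on day 14 (log2FC 0.96, SE 0.24, adjusted p = 0.00118), where 2 of the 10 genes were higher and 2 lower, beside 15.2% and 18.8% of all genes tested, 34% in all. Ordered by level, the groups ran CTRL, day 35, day 42, day 7, day 28, day 21 and day 14. Of neighbours in that order, CTRL and day 35 differed at an adjusted p under 0.05 and the other neighbours were not called.

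Scgb3a2, another secretoglobin of the conducting airways, followed a similar course from day 14. On day 7 it was not called, and its difference from Scgb1a1 on that day was not tested. It lies at chr18:43764289-43767399 on the plus strand (ENSMUSG00000038791). CTRL mice had 387.4 to 570.5 CPM (median 487.9), and day 7 mice 219.3 to 752.5 (median 439.1), which covers the whole CTRL range. On day 14 the range was 95.3 to 366.8 CPM (median 184.4), on day 21 79.7 to 294 (median 159.8) and on day 28 33.3 to 397.1 (median 255.7). On day 35 it was 211.1 to 452.6 CPM (median 333.2) and on day 42 186.2 to 550.2 (median 304.9). All 12 mice of day 14 and of day 21 and 11 of 12 of day 28 lay below the lowest CTRL mouse, as did 9 of 12 on day 35 and 6 of 7 on day 42. Groups fully below CTRL were found for 6.15% and 4.85% of all genes tested on days 14 and 21.

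The log2FC of Scgb3a2 against CTRL was -0.14 on day 7 (SE 0.26, adjusted p = 0.69). It fell on day 14 (-1.18, SE 0.25, adjusted p = 3.82e-05), on day 21 (-1.48, SE 0.25, adjusted p = 8.99e-07) and on day 28 (-1.02, SE 0.25, adjusted p = 0.000605). On days 35 and 42 it had values of -0.60 (SE 0.25, adjusted p = 0.0585) and -0.61 (SE 0.29, adjusted p = 0.113), with 95% intervals from -1.08 to -0.11 and from -1.18 to -0.04. Both were called in fits of only the groups compared (adjusted p = 0.000377 and 0.00313), and the adjusted p over the 9 alternatives ran up to 0.105 and 0.213. The day 35 value was called without day 28 replicate 1 or 2 or without day 35 replicate 3 or 4 (adjusted p from 0.0342 to 0.0476), and the day 42 value without day 42 replicate 1 (log2FC -0.80, adjusted p = 0.0468). Day 14 was lower than day 7 (log2FC -1.04, SE 0.25, adjusted p = 0.00221), and day 42 was not called against day 14 (log2FC 0.56, SE 0.27, adjusted p = 0.098). Scgb3a2 was higher on day 35 than on day 14 (log2FC 0.58, SE 0.24, adjusted p = 0.0416), and higher than on day 21, its lowest day, on both day 35 (0.89, SE 0.24, adjusted p = 0.00619) and day 42 (0.87, SE 0.27, adjusted p = 0.0291). These last 3 values were computed in the fit of all mice only, without alternatives. From the highest group to the lowest the order was CTRL, day 7, day 35, day 42, day 28, day 14 and day 21, in which no neighbours differed at an adjusted p under 0.05.

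Scgb3a1, the third secretoglobin and a product of the larger airways, did not share this course. Its gene (ENSMUSG00000064057) lies at chr11:49663610-49665118 on the plus strand. In CTRL mice it already ran from 2.47 to 33.1 CPM (median 16.6), a 13.4-fold range, where that of Scgb1a1 was 1.37-fold. On day 14 it ran from 2.31 to 126.3 CPM (median 18.4) and on day 35 from 15.1 to 100.8 (median 31.8), and medians of the other days were 11.4, 9.92, 13.4 and 14.3 CPM on days 7, 21, 28 and 42. The mice with the highest values, 126.3 CPM in day 14 replicate 1 and 100.8 in day 35 replicate 7, exceeded every CTRL mouse, yet each BLEO-IPF group overlapped CTRL. No pair of the 7 groups was called. The log2FC against CTRL lay between 0.01 (SE 0.65, adjusted p = 0.988) on day 7 and 1.30 (SE 0.63, adjusted p = 0.108) on day 35, whose 95% interval ran from 0.08 to 2.53 and which was called in the fit of CTRL and day 35 alone (adjusted p = 0.00618).

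**Figure D2:**
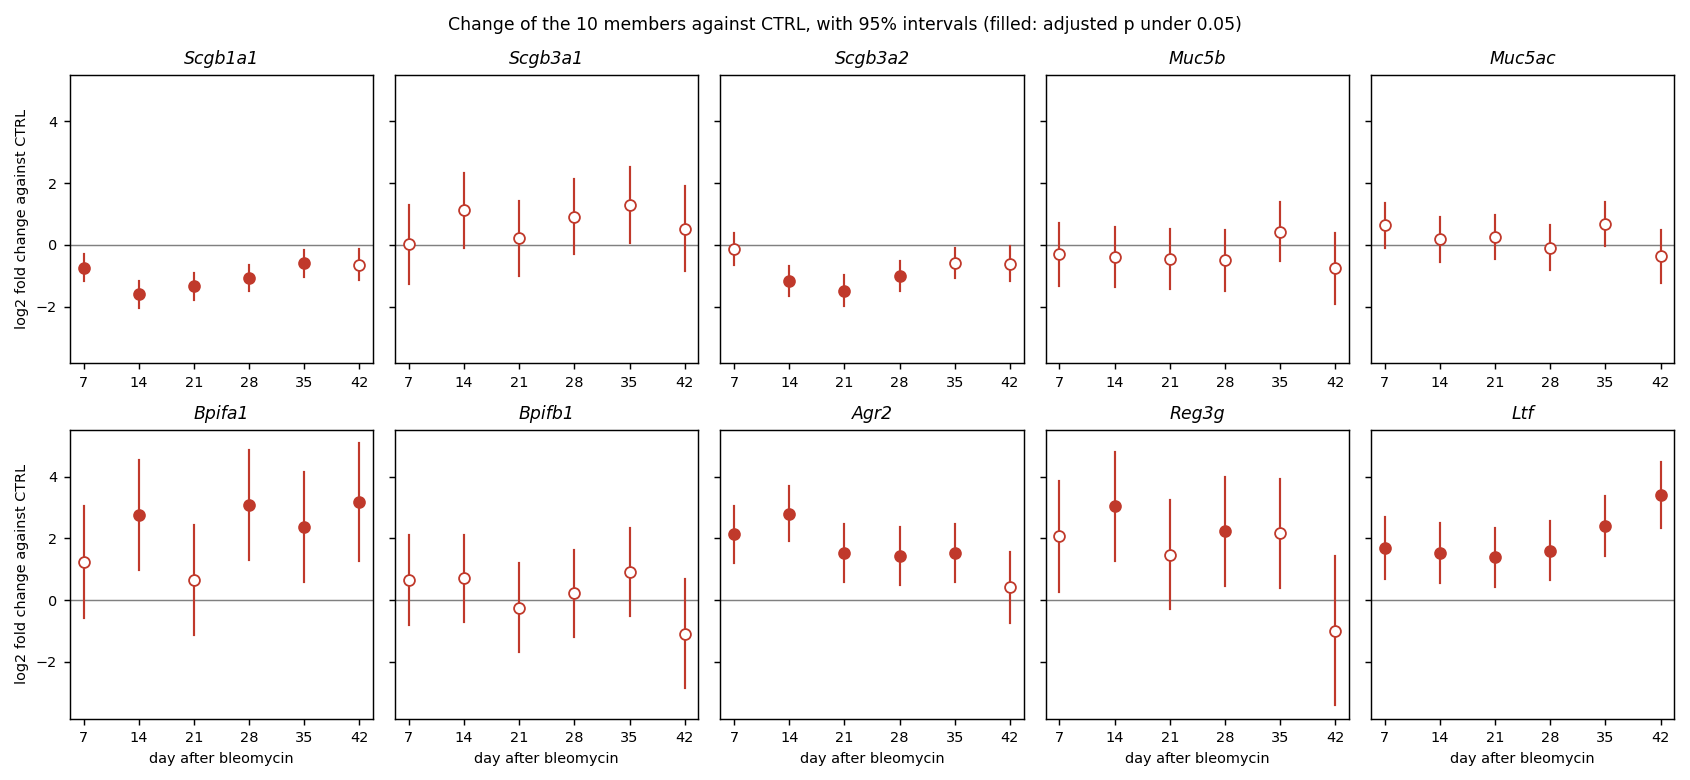
Log2FC of each of the 10 genes against CTRL by day, with bars for the 95% interval and filled points at an adjusted p under 0.05. Scgb1a1 and Scgb3a2 lie below 0 with short bars and are lowest on day 14 and day 21, Ltf is filled on all 6 days, and the bars of Bpifa1, Bpifb1 and Reg3g span several log2 units.

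The gel-forming mucins were not called on any day in the fit of all mice. Muc5b, the main gel-forming mucin of healthy mouse airways (ENSMUSG00000066108, chr7:141839070-141873084, plus strand), ran from 6.04 to 59.97 CPM in CTRL mice (median 25.2). Its median was 10.5 CPM on day 14, 10.0 on day 21 and 9.45 on day 28, with highest mice at 74.9, 71.8 and 54.5 CPM, and it was 15.4, 32.2 and 11.3 CPM on days 7, 35 and 42. Although 9, 10 and 9 of 12 mice on days 14, 21 and 28 lay below the CTRL median, the groups overlapped and the log2FC was -0.38 (SE 0.50, adjusted p = 0.517), -0.47 (SE 0.50, adjusted p = 0.439) and -0.50 (SE 0.50, adjusted p = 0.432). The 95% interval on day 28 ran from -1.48 to 0.47, so neither a fall nor a rise of moderate size can be read from it.

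Muc5ac, the mucin that goblet cells of inflamed airways are known to add (ENSMUSG00000037974), is the neighbour of Muc5b at chr7:141788972-141819231 on the plus strand. It was scarce, with 6 to 19 counts per CTRL library, which is 0.48 to 1.77 CPM (median 1.23). Highest values on the BLEO-IPF days lay between 2.28 CPM on day 42 and 3.77 CPM on day 35, and the medians between 0.65 CPM on day 28 and 1.57 CPM on day 35. Every BLEO-IPF group overlapped CTRL. The largest log2FC against CTRL were 0.64 on day 7 (SE 0.37, adjusted p = 0.152) and 0.67 on day 35 (SE 0.36, adjusted p = 0.154), and no pair of groups was called, although day 7 was in the fit of CTRL and day 7 alone (adjusted p = 0.028). On day 14, with a median of 11.5 counts per library, the log2FC was 0.17 (SE 0.36, adjusted p = 0.693), with a 95% interval from -0.54 to 0.89.

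Agr2 encodes a disulphide isomerase of the endoplasmic reticulum that mucous cells need to fold mucins (ENSMUSG00000020581, chr12:35992907-36004087, plus strand). In CTRL libraries it had only 1 to 5 counts, or 0.09 to 0.52 CPM (median 0.33), so its fold changes start from very few reads. It passed the filter on low counts only through BLEO-IPF mice, and fits of CTRL and 1 day alone did not test it. It ran from 0.37 to 2.76 CPM on day 7 (median 1.29), from 0.28 to 10.8 on day 14 (median 1.25) and from 0.36 to 1.89 on day 21 (median 0.93). Values were 0.19 to 2.09 CPM on day 28 (median 0.90), 0.29 to 2.16 on day 35 (median 0.68) and 0.26 to 1.19 on day 42 (median 0.29). On day 7 9 of 10 mice, and on day 14 11 of 12 mice, were above the highest CTRL mouse, against 1 of 7 on day 42.

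Agr2 rose on day 7 (log2FC 2.13, SE 0.47, adjusted p = 0.000163) and on day 14 (2.80, SE 0.45, adjusted p = 2.27e-07). The rise was smaller on day 21 (1.52, SE 0.47, adjusted p = 0.00518), day 28 (1.41, SE 0.48, adjusted p = 0.0129) and day 35 (1.52, SE 0.48, adjusted p = 0.0104). On day 42 the log2FC was 0.42 (SE 0.59, adjusted p = 0.64), and day 42 was lower than day 14 (log2FC -2.38, SE 0.50, adjusted p = 0.000152). Without day 42 replicate 1, the 1 mouse above CTRL, the day 42 value was -0.03 (adjusted p = 0.98). From the highest group to the lowest the order was day 14, day 7, day 35, day 21, day 28, day 42 and CTRL, in which no neighbours differed at an adjusted p under 0.05. Neither mucin that Agr2 helps to fold was called on these days, and the difference between Agr2 and the mucins was not tested.

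Bpifa1 and Bpifb1 encode secreted BPI fold proteins, lipid-binding defence proteins of the larger airways and airway glands. Their genes lie near each other on the plus strand, Bpifa1 (ENSMUSG00000027483) at chr2:154142880-154149219 and Bpifb1 (ENSMUSG00000027485) at chr2:154190818-154220369. Bpifa1 ran from 1.56 to 15.6 CPM in CTRL mice (median 5.28), from 2.46 to 73 on day 7 (median 10.8) and from 0.92 to 296.4 on day 14 (median 10.3). On day 21 it ran from 0.64 to 54.2 CPM (median 2.63), and on day 28 from 0.87 to 189.7 (median 23.5). Values of day 35 ran from 4.28 to 122.2 CPM (median 28.97) and those of day 42 from 1.04 to 330.5 (median 4.34). In each BLEO-IPF group some mice lay within or below the CTRL range and others above it. Above the highest CTRL mouse were 2 of 10 on day 7, 5 of 12 on day 14 and 2 of 12 on day 21. Later they were 6 of 12 on day 28, 8 of 12 on day 35 and 3 of 7 on day 42.

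By the fit, Bpifa1 rose on day 14 (log2FC 2.76, SE 0.91, adjusted p = 0.00683), day 28 (3.08, SE 0.92, adjusted p = 0.00474), day 35 (2.36, SE 0.90, adjusted p = 0.0385) and day 42 (3.17, SE 0.98, adjusted p = 0.0132). On days 7 and 21 it had values of 1.22 (SE 0.93, adjusted p = 0.281) and 0.64 (SE 0.91, adjusted p = 0.57), of which the first was called in the fit of CTRL and day 7 alone (adjusted p = 0.0338). Single mice carried much of this. Day 14 replicate 1 held 53% of the summed CPM of its group, and without it the log2FC was 1.80 (adjusted p = 0.0666). Day 42 replicate 1 held 76.1%, and without it the log2FC was 1.30 (adjusted p = 0.355), while the median of day 42 was 0.82 times that of CTRL. The call on day 35 was lost in 10 refits that left out 1 mouse, namely CTRL replicate 2, 3, 4, 5, 7, 9 or 10 or day 35 replicate 1, 6 or 7, with a log2FC of 2.01 to 2.35 (adjusted p from 0.0529 to 0.0888). Limma on log2 CPM called Bpifa1 on none of the 6 days.

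Bpifb1 ran from 1.19 to 19.5 CPM in CTRL mice (median 7.41). It ran from 0.37 to 43.2 CPM on day 14 (median 7.08), from 0.10 to 39.9 on day 28 (median 3.40) and from 0.09 to 12.1 on day 42 (median 2.03). Mice on both sides of the CTRL range stood in the same group, with 6 of 12 below and 3 of 12 above it on day 28. No pair of groups was called, and the log2FC against CTRL lay between -1.09 on day 42 (SE 0.90, adjusted p = 0.397) and 0.91 on day 35 (SE 0.72, adjusted p = 0.359).

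Reg3g encodes a C-type lectin that kills gram-positive bacteria at epithelial surfaces (ENSMUSG00000030017, chr6:78466269-78468872, minus strand). CTRL mice had 0.47 to 6.02 CPM (median 1.32), day 7 mice 0.88 to 31.1 (median 3.87) and day 14 mice 0.09 to 64.5 (median 3.82). The range was 0 to 24.8 CPM on day 21 (median 0.41), 0 to 31.9 on day 28 (median 1.64) and 0.42 to 29.2 on day 35 (median 4.27). On day 42 it was 0 to 1.90 CPM (median 0.89), and 0 of 7 mice stood above the highest CTRL mouse. On day 14 5 of 12 mice were above and 3 of 12 below the CTRL range. A library with a count of 0 is not shown to lack the transcript, since a count of 0 allows up to 3 counts.

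Reg3g rose on day 14 (log2FC 3.04, SE 0.90, adjusted p = 0.00262) and on day 28 (2.22, SE 0.90, adjusted p = 0.0381). On days 7 and 35 it had values of 2.07 (SE 0.92, adjusted p = 0.0579) and 2.16 (SE 0.90, adjusted p = 0.0597), and on day 42 of -0.996 (SE 1.23, adjusted p = 0.593). On day 21 the log2FC was 1.47 (SE 0.91, adjusted p = 0.164), although 7 of 12 mice lay below the lowest CTRL mouse and the median was 0.31 times that of CTRL, and limma on log2 CPM gave -0.43 (adjusted p = 0.689). Limma called neither day 14 (1.39, adjusted p = 0.148) nor day 28 (0.70, adjusted p = 0.531), and day 28 was not called without a filter on low counts (adjusted p = 0.0669). Day 42 was lower than day 14 (log2FC -4.04, SE 1.15, adjusted p = 0.0044). The day 28 call was lost in 10 refits that left out 1 mouse, namely CTRL replicate 1, 2, 3, 4, 5, 7 or 10 or day 28 replicate 4, 11 or 12, with a log2FC of 1.75 to 2.21 (adjusted p from 0.0503 to 0.11). Without CTRL replicate 8, which had 6.02 CPM where the next CTRL mouse had 2.19, day 7 (2.55, adjusted p = 0.03) and day 35 (2.64, adjusted p = 0.0334) were called, as they were without day 7 replicate 5 (2.21, adjusted p = 0.0471) and day 35 replicate 12 (2.28, adjusted p = 0.0482).

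Ltf encodes lactotransferrin, an iron-binding protein of airway gland secretions and of neutrophil granules (ENSMUSG00000032496, chr9:111019271-111042767, plus strand). CTRL mice had 7.79 to 22.4 CPM (median 11.6). The range was 20.1 to 64.3 CPM on day 7 (median 39.7), 8.48 to 87.0 on day 14 (median 30.6) and 11.2 to 69.6 on day 21 (median 25.2). It was 5.42 to 143.7 CPM on day 28 (median 31.5), 16.3 to 181.3 on day 35 (median 57.2) and 8.58 to 462.8 on day 42 (median 39.3). Above the highest CTRL mouse stood 9 of 10 mice on day 7, 8, 7, 7 and 10 of 12 on days 14, 21, 28 and 35, and 4 of 7 on day 42, so that every group overlapped CTRL.

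Ltf was the 1 gene of the 10 that was called on all 6 days. It rose on day 7 (log2FC 1.69, SE 0.51, adjusted p = 0.0046), day 14 (1.52, SE 0.49, adjusted p = 0.00565), day 21 (1.38, SE 0.49, adjusted p = 0.014) and day 28 (1.60, SE 0.49, adjusted p = 0.0061). It was also higher than CTRL on day 35 (2.40, SE 0.50, adjusted p = 0.000115) and on day 42 (3.40, SE 0.55, adjusted p = 2.45e-06), and day 42 was higher than day 14 (log2FC 1.88, SE 0.49, adjusted p = 0.00186). Limma on log2 CPM did not call day 28 (adjusted p = 0.0743). Day 42 replicate 1 held 49.7% of the summed CPM of its group. Without it the log2FC was 2.61 on day 42 against CTRL, still called, and 1.11 on day 42 against day 14 (adjusted p = 0.0714). From the highest group to the lowest the order was day 42, day 35, day 7, day 28, day 14, day 21 and CTRL. Of neighbours only day 21 and CTRL differed at an adjusted p under 0.05.

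Since neutrophils also hold Ltf, their markers are given beside it. Of 12 neutrophil markers 8 had enough counts to be tested, and the markers Ly6g, Camp, Elane and Mpo had at most 6, 10, 2 and 3 counts in any library. The list summed to 38.7 to 112 CPM in CTRL mice (median 78.5), to 43.7 to 636 on day 14 (median 89.0) and to 48.1 to 158 on day 42 (median 85.8). Between mice of a group, Ltf and the mean of this list had a Pearson r of -0.11 over the 75 mice, after removing group means. On day 14 5 of the 8 markers rose and 0 fell (median log2FC 1.32), among them Mmp8 (2.88, SE 0.32, adjusted p = 4.57e-12) and Il1r2 (2.85, SE 0.43, adjusted p = 3.74e-08), beside S100a8, Retnlg and Ngp, which were chosen after their values were seen. Without day 14 replicate 8, 3 of the 8 were called. Of all genes tested, 32.4% were called higher and 29.9% lower on day 14. On day 42, when Ltf was highest, 1 of 8 markers was called higher, which was Ngp, where 13.7% of all genes tested were called higher. The part of neutrophils in the change of Ltf was not tested.

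The mice of a group differed widely in several of these genes. The SD of log2 CPM between CTRL mice was 1.15 for Scgb3a1, 0.91 for Muc5b, 0.94 for Bpifa1, 1.06 for Bpifb1 and 0.98 for Reg3g, against 0.156 for Scgb1a1, 0.186 for Scgb3a2 and a median of 0.169 over all genes tested. In each of the 7 groups the SD of these 5 genes was larger than that of at least 97.8% of all genes tested, and it reached 2.49 for Bpifa1 and 2.72 for Reg3g on day 14 and 3.02 for Bpifa1 on day 42. The SD of Scgb1a1 was 0.767 on day 14, where the median of all genes was 0.275, and was 0.215 on day 42, where it was 0.183.

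**Figure D3:**
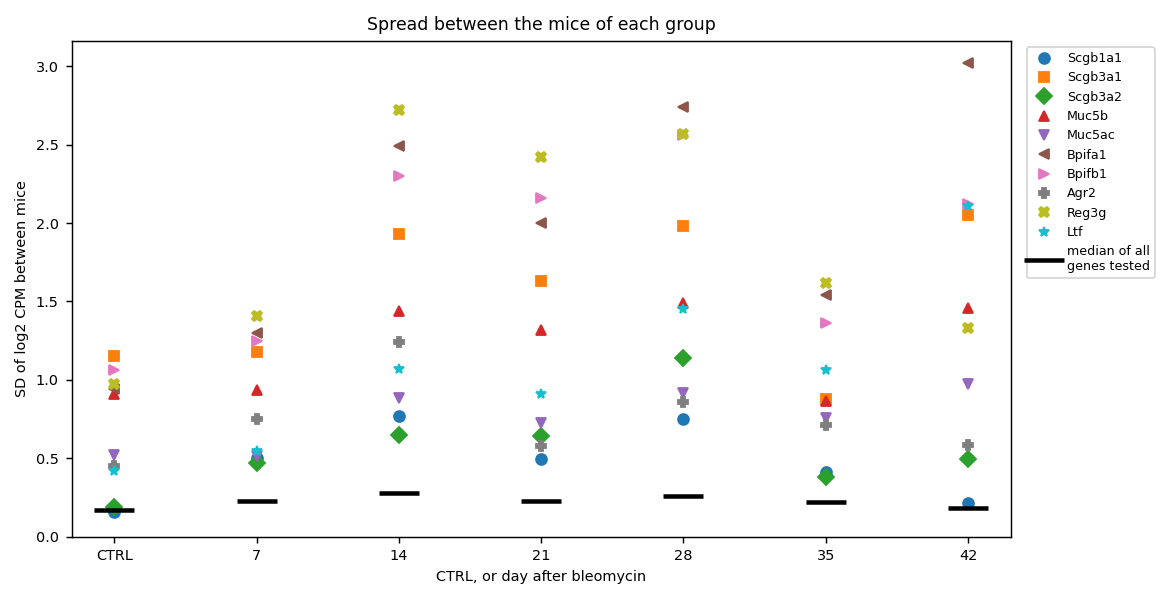
SD of log2 CPM between the mice of each group, for CTRL and each BLEO-IPF day, with 1 marker per gene and a black dash for the median of all genes tested. Bpifa1, Bpifb1, Reg3g, Scgb3a1 and Muc5b stand far above the dash in all 7 groups, CTRL included, where Scgb1a1 and Scgb3a2 lie beside it.

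The same mice were high in the same genes. CTRL replicate 8 had the highest value of its group in 6 of the 10 genes, day 7 replicate 2, day 14 replicate 1 and day 42 replicate 1 each in 7, and day 21 replicate 7 and day 35 replicate 7 each in 5. After removing group means, the 10 pairs among Scgb3a1, Muc5b, Bpifa1, Bpifb1 and Reg3g had a Pearson r of 0.787 to 0.91 over the 75 mice (median 0.865) and a Spearman rho of 0.791 to 0.921. Bpifb1 and Reg3g were the closest pair, at 0.91. Within CTRL mice alone the r was 0.958 for Scgb3a1 with Bpifb1 and 0.924 for Muc5b with Bpifb1. These 5 genes were grouped after their values were seen, the points share the library and its depth, and the r values are a description only.

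Over the 75 mice Scgb1a1 and Scgb3a2 formed another pair, with an r of 0.814, and their r with the 5 genes was 0.142 to 0.543 (median 0.34). This split did not hold within CTRL mice alone. There Scgb3a2 had an r of 0.901 with Bpifb1, 0.872 with Scgb3a1, 0.721 with Muc5b, 0.682 with Bpifa1 and 0.613 with Reg3g. Its r with Scgb1a1 was 0.63, and the r of Scgb1a1 with the 5 genes was 0.147 to 0.371. Over the 75 mice Scgb1a1 followed the mean of 14 club cell genes (r 0.921) and of 12 ciliated cell markers (0.796), and Scgb3a2 did likewise (0.893 and 0.872). Within CTRL mice these values were 0.626 and 0.208 for Scgb1a1, and 0.702 and 0.338 for Scgb3a2. Over the 75 mice the 5 genes had r values of 0.535 to 0.788 with the mucous list. Their r was 0.491 to 0.619 with the ciliated cell list and 0.255 to 0.383 with the club cell list. Muc5ac was closest to Muc5b (0.83), and Ltf had r values of 0.501 to 0.777 with the 5 genes and 0.699 with the basal cell list. Agr2 had values of 0.537 to 0.658 with the 5 genes over all mice, but of -0.394 to -0.0336 within CTRL, where it had at most 5 counts.

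**Figure D4:**
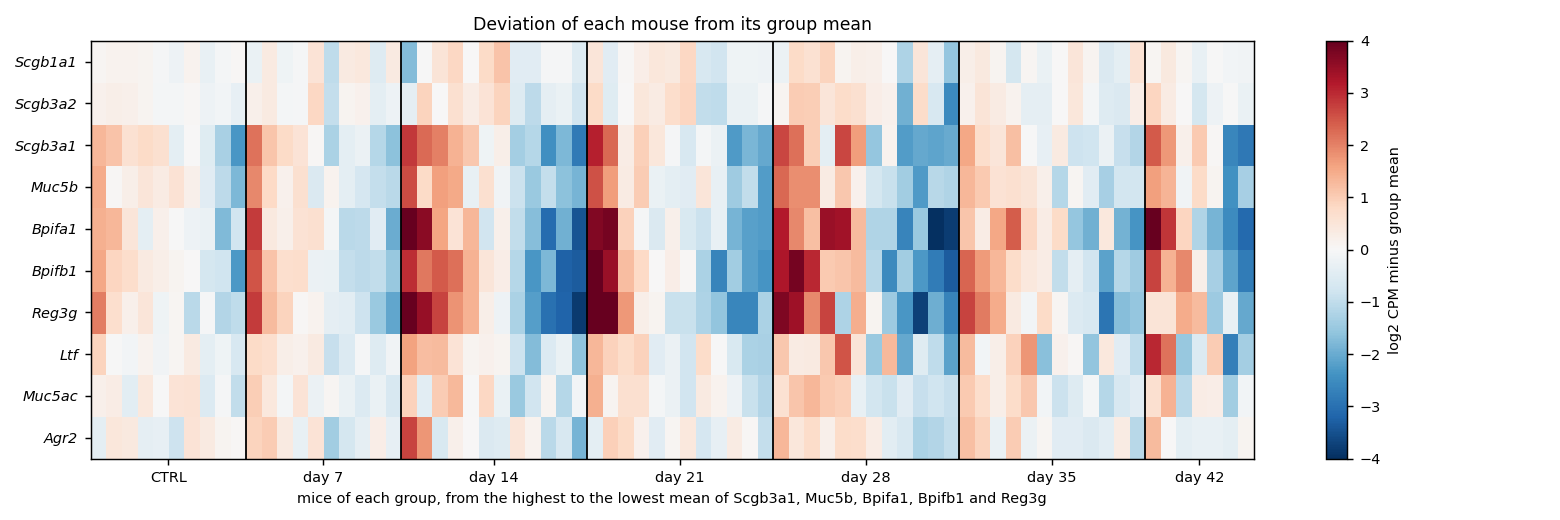
Log2 CPM of each mouse minus its group mean for the 10 genes, with mice in columns, ordered within each group by the mean of Scgb3a1, Muc5b, Bpifa1, Bpifb1 and Reg3g, red for above and blue for below the mean. Since those 5 genes set the order, their gradient from red to blue is built in, and what is to be seen is that the 5 change colour in the same mice and that Scgb1a1 and Scgb3a2 follow that order less closely, though day 28 replicates 1 and 2 are blue in them too, at -1.22 and -1.55 for Scgb1a1 and -1.92 and -2.56 for Scgb3a2. Within CTRL mice alone Scgb3a2 had r values of 0.613 to 0.901 with the 5 genes.

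**Figure D5:**
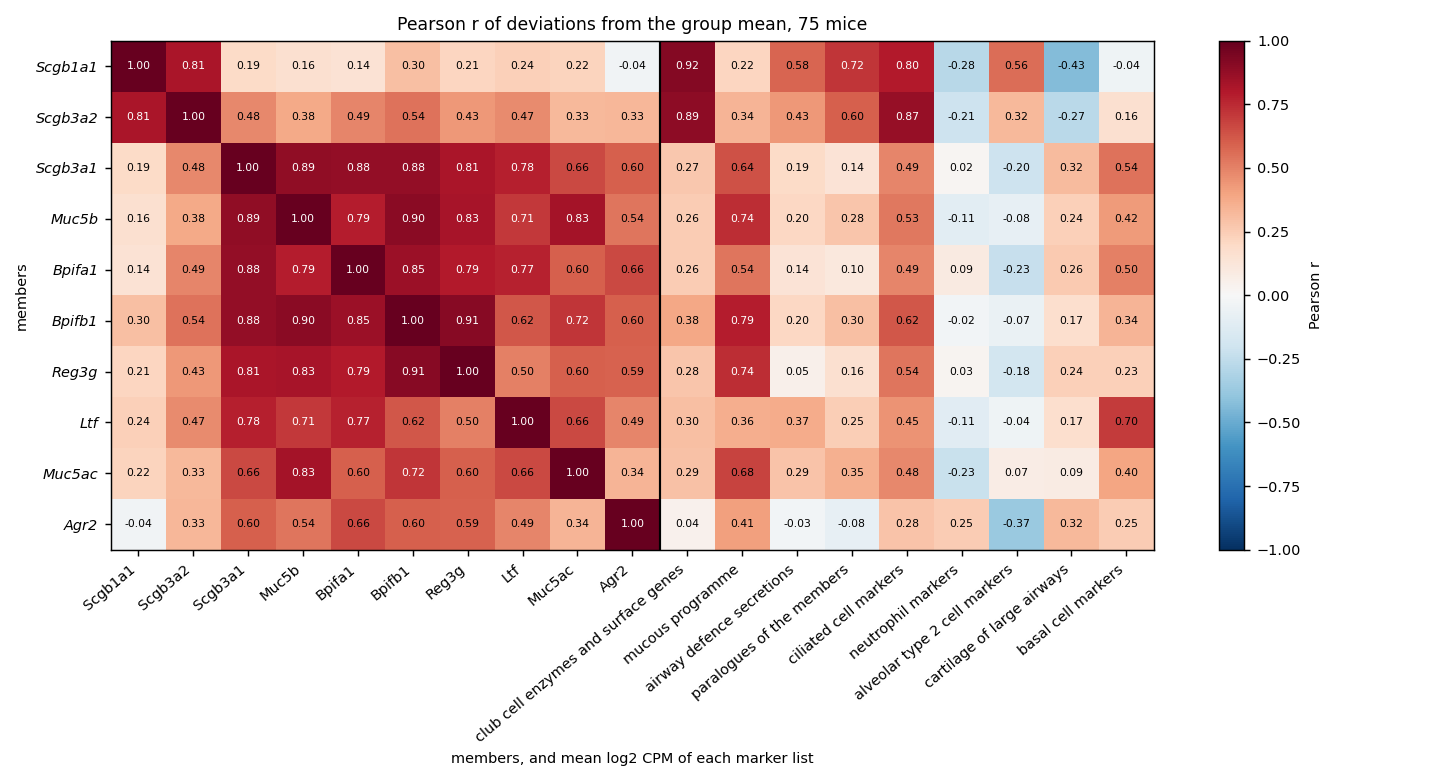
Pearson r over the 75 mice between the deviations of the 10 genes (rows) and those of the 10 genes and the mean log2 CPM of 9 gene lists (columns), after removing group means. Red cells of 0.79 and above join Scgb3a1, Muc5b, Bpifa1, Bpifb1 and Reg3g, and Scgb1a1 and Scgb3a2 are joined to the club cell and ciliated cell lists.

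Of the 5 genes that varied together, the promoters of 4 were found in the RefSeq table of GRCm38.p6 (Scgb3a1, Bpifa1, Bpifb1 and Reg3g), and the 120 bases before the annotated start are shown because these genes were high and low in the same mice. They lie at chr11:49663475-49663594 (plus strand), chr2:154142760-154142879 (plus), chr2:154190698-154190817 (plus) and chr6:78468875-78468994 (minus). Capitals mark TATAAA, the letters of a TATA box.
Scgb3a1: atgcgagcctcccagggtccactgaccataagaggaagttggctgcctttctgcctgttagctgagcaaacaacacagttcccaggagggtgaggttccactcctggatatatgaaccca
Bpifa1: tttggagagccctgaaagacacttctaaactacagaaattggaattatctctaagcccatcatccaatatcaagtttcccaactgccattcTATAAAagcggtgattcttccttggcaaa
Bpifb1: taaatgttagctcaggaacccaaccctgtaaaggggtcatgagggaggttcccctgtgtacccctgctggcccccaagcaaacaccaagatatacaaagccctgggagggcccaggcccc
Reg3g: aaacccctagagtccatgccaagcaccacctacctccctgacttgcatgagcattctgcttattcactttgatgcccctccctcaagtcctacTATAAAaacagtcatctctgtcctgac

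The run TATAAA begins 29 bases before the start of Bpifa1 and 27 bases before that of Reg3g, and stands in neither of the other sequences shown. Over both strands it was found in 6.34% of all 32851 promoter windows of 120 bases. Within 250 bases before the start, TNTTTAC (a forkhead motif) was found once in Bpifa1, and in 10.9% of all windows. CAAGTG (NKX2-1) and TTCNNNGAA (STAT) each had 1 match in Scgb3a1, and were found in 11.6% and 7.02% of all windows. No motif of these 4 was common to the 4 promoters, and Agr2 and Ltf, which the table also holds, had none of them. Bpifb1 has a further start in the table, with 1 match each of TNTTTAC and TTCNNNGAA before it. A match of letters is a description and not a binding site.

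Other genes of the same cells were counted from lists. Of all genes tested, 24.8%, 32.4%, 28.3%, 24.1%, 16.9% and 13.7% were called higher on the 6 days in order of time. Called lower were 21%, 29.9%, 25.8%, 19.2%, 13.1% and 11%, and no list was tested against these shares. Of 14 club cell enzymes and surface genes, 7 fell on day 7, 13 on each of days 14, 21 and 28, 9 on day 35 and 8 on day 42, and the only 1 that rose on any of these days was Upk3a on day 35, named after its values were seen. The list had a median log2FC of -0.52, -1.43 and -0.74 on days 7, 14 and 42. The largest changes on day 14 were those of Cbr2, a carbonyl reductase (log2FC -2.15, SE 0.28, adjusted p = 5.97e-10), and Lypd2 (-2.03, SE 0.30, adjusted p = 1.65e-08). Cbr2 fell from a mean of 4090 ± 300 CPM in CTRL to 919 ± 562 on day 14. From day 14 to day 42 10 of the 14 genes rose and 0 fell, beside 15.2% and 18.8% of all genes tested. The list summed to 1540 to 5840 CPM on day 14, below the lowest CTRL mouse in all 12 mice, as 6.15% of all genes tested were singly.

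Ciliated cells share the small airways with club cells. Of 12 ciliated cell markers, 4 fell on day 7, 12 on each of days 14 and 21, 11 on day 28, 0 on day 35 and 5 on day 42, with 0 higher on any of these days. The largest were Tppp3 (day 14 log2FC -1.74, SE 0.22, adjusted p = 1.86e-10) and Hydin (-1.54, SE 0.26, adjusted p = 3.97e-07), both of motile cilia. The list had a median log2FC of -0.95 on day 14, and of -0.17 on day 35, when that of club cell genes was -0.60. Of 8 alveolar type 2 cell markers 6 fell on day 14, all but Abca3 and Lpcat1, among them Sftpa1 (-1.19, SE 0.22, adjusted p = 3.15e-06) and Slc34a2 (-0.91, SE 0.16, adjusted p = 2.23e-06), and 0 were lower on days 21, 28, 35 and 42. Club cell genes thus had called falls on days when alveolar type 2 cell markers had none, though the difference between the lists was not tested.

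The mucous list, transcription factors, glycosyltransferases and products of mucous cells, had 10 of its 16 genes tested, and moved in both directions on days 14, 21 and 28 only. On day 7 5 rose and 0 fell, with a median log2FC of 0.35, and the list summed to 353 to 484 CPM against 294 to 345 CPM in CTRL mice. Such a sum mostly reflects the most abundant genes of the list. On day 14 5 rose and 2 fell (median 0.18), where 62.4% of all genes tested were called. On day 21 4 rose and 2 fell (54.2% of all genes called), and on day 28 4 and 1 (43.3%). On day 35 4 rose and 0 fell (median 0.29), and on day 42 2 and 0. The chloride and iodide exchanger Slc26a4 rose most among genes with a mean log2 CPM above 0 (day 14 log2FC 3.24, SE 0.35, adjusted p = 1.76e-12), from 1.24 to 6.12 CPM in CTRL to 8.06 to 46.7 on day 14, without overlap, as 9.46% of all genes did in that direction. Creb3l1 rose by less (0.90, SE 0.15, adjusted p = 5.79e-07). The others called on day 14, named after their values were seen, were Galnt6, Xbp1 and Clca1, which rose, and Spdef and Foxa2, which fell. Those that rose on day 7 were Slc26a4, Clca1, Galnt6, Galnt12 and Xbp1, and on days 21, 28 and 35 Slc26a4, Clca1, Galnt6 and Creb3l1. On day 42 they were Slc26a4 and Galnt6, while Fcgbp fell on days 21 and 28 and Foxa2 also on day 21. Clca1, a product of goblet cells, was at 0 to 0.19 CPM in CTRL mice and at 0 to 16.1 CPM on day 14. With such low CTRL values it can have passed the filter on low counts only through BLEO-IPF mice. Its calls are counted in the rises of the list on days 7 to 35 and add little to them. Spdef, a goblet cell transcription factor, fell with a log2FC of -0.57 on day 14.

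Of 12 further defence secretions 9 were tested, of which 5 rose and 1 fell on day 7, and 3 rose and 4 fell on day 14 (median log2FC 0.07). On these days 45.8% and 62.4% of all genes tested were called. Lcn2, an iron-scavenging lipocalin, rose from 60.3 to 124 CPM in CTRL mice to 170 to 554 on day 14 (log2FC 2.12, SE 0.22, adjusted p = 1.15e-12). No mouse of that day overlapped CTRL, as for 9.46% of all genes tested in that direction. Cfb, a complement factor, rose too (1.76, SE 0.34, adjusted p = 7.42e-06), as did C3. Duox2, Lyz1, Pigr and Wfdc2 fell on day 14, and these 5 genes were named after their values were seen. On day 42 Lcn2 was called higher (2.06, SE 0.24, adjusted p = 9.85e-10) and Lyz1 lower, and the other 7 were not called. Lcn2 and Ltf are both iron-binding defence proteins, and both were called higher on each of the 6 days.

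Of 28 paralogues of the 10 genes only 8 had enough counts to be tested. On day 14 2 of the 8 rose and 4 fell, beside 32.4% and 29.9% of all genes tested. Scgb1c1 fell on day 14 (log2FC -1.54, SE 0.27, adjusted p = 8.86e-07) as Scgb1a1 and Scgb3a2 did, and so did Bpifb5 (-1.46, SE 0.22, adjusted p = 3.41e-08), a BPI fold gene. Agr3 and Muc20 fell too, and Bpifa2 and Muc4 rose, all 4 named after their values were seen. Agr3, the close relative of Agr2, had a log2FC of -0.78 on day 14 against 2.80 for Agr2. Reads shared between such relatives could not be told apart here, because the treatment of reads that map to several places is not given in the sources used here. None of the 10 genes overlaps another gene of the annotation.

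Of 8 basal cell markers 7 were tested. On day 14 1 rose, which was Krt17, while 4, 4, 5 and 4 rose on days 21, 28, 35 and 42, with a median log2FC of 1.27 on day 35 and 1.23 on day 42. Krt5, a keratin of airway basal cells, was called higher on days 21, 28, 35 and 42, as were Krt17 and Trp63, and these were named after their values were seen. The list summed to 2.97 to 5.77 CPM in CTRL mice, to 2.94 to 39 on day 35 and to 4.20 to 36.2 on day 42. The 3 genes of the cartilage list that were tested, Col11a2 (day 14 log2FC 0.52, SE 0.20, adjusted p = 0.0228), Matn3 and Comp, rose on day 14. The others, Acan, Col2a1 and Matn1 among them, had too few counts, so a rise of cartilage cannot be read from these 3. The call of Col11a2 was lost without CTRL replicate 3 or 6 or day 14 replicate 2 or 8 (log2FC 0.42 to 0.45, adjusted p from 0.0527 to 0.0662). The part of basal cells or of cartilage in the values of the 10 genes was not tested.

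Among all genes tested, those with the most similar 6 log2FC against CTRL were listed for each gene by their mean absolute difference over the 6 days. For Scgb1a1 these included Tmprss13 (0.052) and Ttll6 (0.085), and for Scgb3a2 they were Fgfbp1 (0.139), Mdh1b (0.139) and Cldn10 (0.144), the last a gene of the club cell list. Agr2 was followed by Nrip3 (0.283), Ctla4 (0.285) and Serpina3h (0.30), and Ltf by Cxcr1 (0.362), Atp10b (0.377) and Sv2c (0.439). For Bpifa1 the nearest genes, Igkv4-91 (0.614), Ctsk (0.648) and Creg2 (0.669), and for Reg3g, Rbfox1 (0.558), Fcna (0.558) and Mrap (0.611), were farther away.

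The genes that were not called had near neighbours of their own. Muc5b was nearest to Pcsk1 (0.118), Spdef (0.136) and Serpina9 (0.151), of which Spdef stands in the mucous list. Muc5ac was nearest to Kif24 (0.167), Efcab11 (0.168) and Klhl32 (0.173). Scgb3a1 was nearest to Ppp1r3a (0.221), Reln (0.223) and Serpind1 (0.254), and Bpifb1 to Calca (0.333), Dok7 (0.356) and Smpd3 (0.359). The median distance over all genes was 0.851 for Scgb3a2, 0.50 for Muc5b, 0.42 for Muc5ac and 2.20 for Bpifa1. Courses with smaller log2FC, such as those of the mucins, thus have more near neighbours. That the mucins were not called does not show that they did not change.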

How the data were processed

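RNA of the inferior lobe was purified by the authors, made into directional poly(A) libraries, sequenced, and aligned with STAR 2.7.0f to GRCm38 with the annotation of Ensembl 96. The authors deposited counts per gene without normalization, and the counting program and its treatment of strand and of reads with several matches are not given in the sources used here. All 75 columns were matched to mice by library name, and each of the 55536 gene identifiers was found in the annotation, from which coordinates and exon lengths were taken. Depth limits low genes most, and for a count of 0 an upper limit of 3 counts was used.

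Tests were run on these counts in R 4.3.3 with edgeR 4.0.16 (quasi-likelihood F test, TMM factors, filterByExpr, 7 group means, 75 mice), and p-values were adjusted after Benjamini and Hochberg over 16221 genes (threshold 0.05). Intervals are the log2FC ± 1.96 SE. Log2 CPM used a prior count of 2. The labels give each library as 1 sample of a group, and p-values measure the spread between mice. The 9 alternatives were DESeq2 1.42.0, library size only, upper quartile factors, all genes without a filter, only genes with 10 or more counts in each mouse, a robust fit, a replicate block, a fit of only the groups compared, and limma 3.58.1 on log2 CPM, the last added after the spread between mice was seen. Each of the 75 mice was also left out in turn.

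The 10 genes and the 9 lists were chosen with earlier results of these data known. From each list the text names the 2 genes with the largest absolute log2FC on day 14 among those called on that day with a mean log2 CPM above 0. For each of the 10 genes it names the 3 genes nearest in log2FC over 6 days, among those with a mean log2 CPM above 0 and a symbol that does not only repeat a clone name. One of these nearest genes is not reported here. Promoters came from RefSeq, where 6 of the 10 genes were found. The test was tried on simulated counts. Summaries used pandas 2.3.3, numpy 2.4.6 and scipy 1.17.1, and plots matplotlib 3.10.9, under Python 3.11.15.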

Additional observations from a re-analysis of the deposited data

Results flagged for a closer look

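A single mouse stood apart, by Dixon's test at the 95% level, in 9 of the 30 sets of CTRL, day 7 or day 42 mice and 1 of the 10 genes that could be tested. Chance gives this in about 1 in 20 sets when values are spread normally, whereas CPM of these genes reach far upwards in a few mice. On the log2 CPM scale, tried after the data were seen, 1 of the 30 sets passed, that of Agr2 on day 42, and the other 8 did not. The 9 are carried by 3 mice. Day 7 replicate 2 had 55.4 CPM of Scgb3a1 where the next mouse had 26.1, 63.2 CPM of Muc5b (next 28.9), 73 CPM of Bpifa1 (next 16.2), 49.7 CPM of Bpifb1 (next 18.7) and 31.1 CPM of Reg3g (next 10.6). CTRL replicate 8 had 59.97 CPM of Muc5b (next 32.6) and 6.02 CPM of Reg3g (next 2.19). Day 42 replicate 1 had 330.5 CPM of Bpifa1 (next 75.1) and 1.19 CPM of Agr2 (next 0.43).

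In the comparisons of day 14 with day 7 and of day 42 with day 14, 6 values of the 10 genes passed the test of the difference itself. From day 7 to day 14 these were Scgb1a1 (log2FC -0.87, adjusted p = 0.00339) and Scgb3a2 (-1.04, adjusted p = 0.00221). From day 14 to day 42 they were Scgb1a1 (0.96, adjusted p = 0.00118), Agr2 (-2.38, adjusted p = 0.000152), Reg3g (-4.04, adjusted p = 0.0044) and Ltf (1.88, adjusted p = 0.00186), all from edgeR's quasi-likelihood test. The value of Ltf was 1.11 (adjusted p = 0.0714) without day 42 replicate 1, and so did not pass without that mouse. Among other pairs of days, Scgb3a2 was higher on day 35 than on day 14 (0.58, adjusted p = 0.0416) and higher on days 35 and 42 than on day 21 (0.89, adjusted p = 0.00619, and 0.87, adjusted p = 0.0291).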

How the results depend on the processing

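Library size only, upper quartile factors and a robust fit changed no call or direction among the 80 log2FC of the 10 genes. The falls of Scgb1a1 on days 7 to 28 and of Scgb3a2 on days 14 to 28 were called under all 9 alternatives. The rises of Agr2 on days 7 to 35 were called under the 7 that tested it. With at least 10 counts in every mouse, and in fits of CTRL and 1 day alone, it had too few counts to be tested. Since it passed the filter only through BLEO-IPF mice, the agreement of the 7 adds little. Leaving out 1 mouse at a time kept direction and call in 5916 of 6000 values. Most of these refits left out a mouse of neither group compared, so their agreement was largely given beforehand and is no measure of stability.

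Of the 10 genes, requiring at least 10 counts in every mouse left 3 called on day 14, 3 on day 28, 2 on day 35 and 2 between days 42 and 14, since fewer genes were tested. With no filter 2 were called on day 35. The fit of only the groups compared called 5 on day 7 and 4 on day 42, beside 53.7% and 39.8% of all genes it tested. Limma called 3 on day 28 and 1 on day 42, beside 42.5% and 24.5%. With 1 mouse left out the counts ran from 3 to 4 on day 7, 5 to 6 on day 14, 4 to 4 on day 21, 5 to 6 on day 28, 2 to 5 on day 35, 2 to 3 on day 42, 2 to 2 between days 14 and 7, and 3 to 4 between days 42 and 14. Except for the filter, the cause was not tested.

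With the replicate block 1 gene was called on day 42, and the log2FC of Bpifb1 between days 14 and 7 (-0.47) and of Bpifa1 between days 42 and 14 (-0.26) turned. The numbers do not pair the mice: deviations of mice with the same number had a median r of 0.00574 over 204 pairs, against 0.00183 for different numbers.

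On day 14 the lists with at least 10 counts in every mouse gave 2 called paralogues, 3 neutrophil, 1 cartilage and 0 basal cell genes. The fit of only the groups compared gave 3 neutrophil genes and 1 cartilage gene, limma 3 neutrophil and 2 basal cell genes, DESeq2 3 and the replicate block 2 basal cell genes. On day 14 the fit of only the groups compared called 61.3% of all genes it tested, and limma 62.4%. With 1 mouse left out the lists ran from 13 to 13 (club cell), 6 to 7 (mucous), 7 to 7 (defence), 5 to 6 (paralogues), 12 to 12 (ciliated), 3 to 5 (neutrophil), 6 to 8 (alveolar type 2), 2 to 3 (cartilage) and 1 to 3 (basal).

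Calls lost outside these were those of Bpifa1 on day 14 (block 1.95, limma 1.02), day 28 (limma 1.56), day 35 (no filter 2.35, block 2.13, limma 1.94) and day 42 (block 1.69, limma 0.82), Reg3g on day 14 (limma 1.39) and day 28 (no filter 2.22, block 2.18, limma 0.70), Ltf on day 28 and between days 42 and 14 (limma 1.02 each), and Scgb1a1 on day 35 (no filter -0.60). Values that changed sign were all uncalled. For Scgb3a1 on day 7 these were -0.0045 with the stricter filter, -0.012 with DESeq2 and -0.12 with limma. Limma also gave -0.017 for Muc5ac and -0.27 for Bpifb1 on day 14, -0.35 for Scgb3a1, -0.64 for Bpifa1 and -0.43 for Reg3g on day 21, -1.26 for Bpifb1 on day 28, -0.0799 for Scgb3a1 on day 42, -0.62 for Bpifb1 and -0.20 for Reg3g between days 14 and 7, and -0.20 for Bpifa1 between days 42 and 14. With 1 mouse left out, sign changes lay within -0.42 to 0.19 (Scgb3a1, day 7), -0.38 to 0.38 (Scgb3a1, day 21), -0.011 to 0.86 (Bpifa1, day 21), -1.05 to 0.0026 (Bpifb1, day 21), -0.33 to 0.46 (Bpifb1, day 28), -0.043 to 0.72 (Scgb3a1, day 42), -0.031 to 0.52 (Agr2, day 42), -0.50 to 0.31 (Muc5b, days 14 and 7), -0.26 to 0.65 (Bpifb1, days 14 and 7), -0.71 to 0.038 (Muc5b, days 42 and 14) and -1.44 to 1.37 (Bpifa1, days 42 and 14).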
